A study of Mus musculus with 54 samples.

Results

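RNA polymerase II (Pol2) was mapped by ChIP-seq in germ cell-enriched preparations of WT testis and of testis from the combined mutant (CM), and the peaks deposited for the 2 genotypes were compared. All peaks of both lists were used, 25192 in WT and 28407 in CM, which made 53599 of the 172180 peaks in the deposited ChIP-seq lists used here. The series also holds RNA-seq of the same kind of preparation, RNA-seq of purified round spermatids (RS) and spermatocytes (SC), and ChIP-seq of CTCF, BORIS and H3K4me3, 54 samples in all. CTCF is a zinc finger protein that organizes chromosome loops, and BORIS (gene Ctcfl) is its testis-specific paralog. CM mice carry 1 functional copy of Ctcf and none of Boris (Ctcf +/- Boris -/-, named DKO in the sample titles), and all mice of the Pol2 experiment were C57BL/6 males of 3 months. Each list stands for 2 preparations of 4 pooled mice per genotype, precipitated with the antibody 4H8 (ab5408). The sources used here do not state how the preparations were combined into a list. The genotypes therefore had no replicate check for Pol2, no p-value was computed between them, and the 95% Wilson intervals given for shares of peaks or genes cover counting error only. The preparations hold several cell types, so that fewer cells of a type and less Pol2 or RNA per cell cannot be told apart.

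Pol2 transcribes all protein-coding genes. It is recruited with general transcription factors to promoters, often pauses shortly after the start, and then moves through the gene body to beyond the gene's end. In the testis, spermatocytes in mid to late meiosis and round spermatids transcribe many germ cell-specific genes, while the sex chromosomes are silenced during meiosis.

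In both lists each peak had a score given by the peak caller, with a lowest value of 50.01 in WT and 50 in CM and a median of 143 and 113. Since the depth behind the scores is unknown, every peak was given its percentile within its own list, from 0 for the lowest to 100 for the highest score. A score of exactly 3100 was shared by 209 WT and 168 CM peaks, whose order was therefore not resolved. WT peaks covered 62.3 Mb with a median width of 1740 bp, and CM peaks covered 61.6 Mb with a median width of 1576 bp. Wider peaks scored higher in both lists (Spearman's rho across peaks 0.771 in 25192 WT peaks and 0.785 in 28407 CM peaks). A gene's Pol2 value was the percentile of the highest-scoring peak within 1000 bp of any of its annotated starts, and its shift was the CM percentile minus the WT percentile.

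The promoters of 8 genes from the extremes of that shift are shown because the letters of the promoters differed between genes that rose and genes that fell. They are the 250 bases before the 5′-most annotated start in mouse build mm9, 5′ to 3′ on the gene's strand, with every CG dinucleotide in capitals. They were taken in order of the shift among promoters that no annotated transcript reaches. The first 4 belong to genes with the largest rises, at chr16:91647198-91647447 on the minus strand (Gart), chr11:59778447-59778696 on the minus strand (Rasd1), chr6:82724449-82724698 on the minus strand (Hk2) and chr3:145312950-145313199 on the minus strand (Cyr61). The other 4 belong to genes with the largest falls, at chr10:93294050-93294299 on the plus strand (Usp44), chr13:58486587-58486836 on the minus strand (2210016F16Rik), chr2:130230745-130230994 on the plus strand (1700020A23Rik) and chr4:94595535-94595784 on the minus strand (4930579C15Rik).
Gart: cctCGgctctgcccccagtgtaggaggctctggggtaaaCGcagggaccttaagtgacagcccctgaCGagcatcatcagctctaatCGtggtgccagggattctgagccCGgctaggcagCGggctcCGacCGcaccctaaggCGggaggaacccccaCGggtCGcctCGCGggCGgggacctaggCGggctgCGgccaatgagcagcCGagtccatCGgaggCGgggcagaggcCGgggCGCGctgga
Rasd1: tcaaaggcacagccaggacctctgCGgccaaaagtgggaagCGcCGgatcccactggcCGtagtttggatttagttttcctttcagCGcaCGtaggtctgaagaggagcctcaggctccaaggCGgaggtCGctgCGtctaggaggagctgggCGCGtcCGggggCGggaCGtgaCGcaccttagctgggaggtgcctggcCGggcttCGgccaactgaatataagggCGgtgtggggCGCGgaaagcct
Hk2: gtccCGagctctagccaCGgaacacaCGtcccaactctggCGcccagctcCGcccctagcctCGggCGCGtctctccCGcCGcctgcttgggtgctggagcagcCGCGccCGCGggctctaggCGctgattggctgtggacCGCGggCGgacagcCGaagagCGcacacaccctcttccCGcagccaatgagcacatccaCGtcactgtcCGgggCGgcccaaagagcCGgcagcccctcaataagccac
Cyr61: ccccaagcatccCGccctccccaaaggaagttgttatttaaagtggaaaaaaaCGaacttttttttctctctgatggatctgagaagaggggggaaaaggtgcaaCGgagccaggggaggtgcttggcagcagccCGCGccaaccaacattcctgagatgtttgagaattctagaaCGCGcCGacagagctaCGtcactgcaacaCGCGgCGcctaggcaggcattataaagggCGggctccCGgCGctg
Usp44: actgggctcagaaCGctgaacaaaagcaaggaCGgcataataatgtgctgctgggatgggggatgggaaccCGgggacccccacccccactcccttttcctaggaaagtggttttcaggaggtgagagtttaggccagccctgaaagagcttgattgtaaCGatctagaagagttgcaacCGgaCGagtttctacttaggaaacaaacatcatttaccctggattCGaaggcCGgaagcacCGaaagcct
2210016F16Rik: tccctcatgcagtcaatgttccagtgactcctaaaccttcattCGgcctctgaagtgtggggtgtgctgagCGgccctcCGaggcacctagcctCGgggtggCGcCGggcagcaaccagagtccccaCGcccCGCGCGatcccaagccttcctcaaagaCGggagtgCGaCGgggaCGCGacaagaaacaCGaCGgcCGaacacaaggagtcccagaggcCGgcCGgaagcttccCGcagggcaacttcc
1700020A23Rik: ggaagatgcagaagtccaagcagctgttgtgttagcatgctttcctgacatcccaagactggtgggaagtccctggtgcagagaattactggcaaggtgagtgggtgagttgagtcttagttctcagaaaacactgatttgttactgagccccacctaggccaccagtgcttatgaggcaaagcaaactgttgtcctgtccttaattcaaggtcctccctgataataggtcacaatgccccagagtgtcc
4930579C15Rik: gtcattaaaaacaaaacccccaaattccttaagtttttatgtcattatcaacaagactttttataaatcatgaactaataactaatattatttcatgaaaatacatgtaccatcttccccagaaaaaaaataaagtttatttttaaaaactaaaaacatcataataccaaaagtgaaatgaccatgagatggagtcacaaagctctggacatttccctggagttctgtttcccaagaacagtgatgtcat
The promoters of Gart, Rasd1, Hk2 and Cyr61 held 22, 20, 25 and 15 CG dinucleotides, whereas those of Usp44, 2210016F16Rik, 1700020A23Rik and 4930579C15Rik held 9, 21, 0 and 0. The falls thus included both CG-rich and CG-free promoters. Across all 21105 promoters without unknown bases, 44.7% had a ratio of observed to expected CG above 0.6. The ratio was above 0.6 in 72.1% of promoters with a Pol2 peak in both lists, in 60.3% of those with a peak in the CM list only and in 24.8% of those with a peak in the WT list only. Among the genes in both lists it was above 0.6 at 74.3% of the promoters that rose by 20 points or more and at 29.1% of those that fell by 20 points or more. The GC box (GGGCGG on either strand), a motif of CG-rich promoters that itself holds a CG, was present in 42.4% of all promoters and 56.3% of those in both lists. It was present in 58.2% of CM list only, 28.2% of WT list only and 24.8% of the promoters that fell. A TATA box (TATAAA on either strand) was found in 11.7% of all promoters, 6.12% of those in both lists, 6.77% of CM list only and 13.9% of WT list only promoters. A CCAAT box (CCAAT on either strand) differed little by class, with 35.5% of all, 37.6% of both lists, 35.7% of CM list only and 35.4% of WT list only promoters. The remaining motifs searched were the ETS site (CCGGAAG), the CRE (TGACGTCA), the AP-1 site (TGACTCA), a pair of heat shock units (GAANNTTC) and the CArG box. In the order all, both lists, CM list only and WT list only, the ETS site was found in 8.82%, 16.4%, 10.5% and 6.46% of promoters. The CRE was found in 2.04%, 3.46%, 1.61% and 1.70%, and the AP-1 site in 3.84%, 2.37%, 3.33% and 5.10%. The heat shock pair was found in 5.95%, 5.61%, 5.37% and 9.52%, and the CArG box in 1.30%, 1.03%, 1.29% and 1.02%. No motif was tested for a difference between classes.

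About 2 of 3 peaks of each list were found in the other list. Counting an overlap of at least 1 bp, 16434 WT peaks (65.2%, 95% interval 64.6 to 65.8) overlapped a CM peak and 8758 were found in the WT list only. Of the CM peaks, 17398 (61.2%, 60.7 to 61.8) overlapped a WT peak and 11009 were found in the CM list only. Sharing followed the score. In the top 20% of scores 98.9% of WT and 97.6% of CM peaks were shared, and in the bottom 20% 33.4% and 28.1%. Shared peaks had a median percentile of 65.7 in WT and 67.4 in CM, against 26.7 and 28.0 for the peaks of 1 list, and were wider (median 2128 against 1287 bp in WT, 2017 against 1166 bp in CM). Most peaks found in 1 list thus lay near the lower end of its scores. The match was not always 1 to 1, since 2020 WT peaks spanned 2 or more CM peaks and 1385 CM peaks spanned 2 or more WT peaks. In the 12399 pairs matched 1 to 1, the percentiles correlated (Spearman's rho 0.694) and the median shift was 2.47 points.

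The peaks added in CM lay at promoters more often than the peaks missing from CM. Promoter peaks, those within 1000 bp of a start, made 37.4% of WT peaks and 39.9% of CM peaks, gene body peaks 42.0% and 42.9%, and intergenic peaks 20.6% and 17.3%. Of the WT list only peaks, 939 (10.7%, 10.1 to 11.4) were at promoters, 61.6% in gene bodies and 27.7% intergenic. Of the CM list only peaks, 2815 (25.6%, 24.8 to 26.4) were at promoters, 57.2% in gene bodies and 17.2% intergenic. Seen from the position, 90.0% of WT promoter peaks were shared with CM, but 75.1% of CM promoter peaks were shared with WT. In gene bodies the shared fractions were close, at 49.0% of WT and 48.2% of CM peaks.

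**Figure D1:**
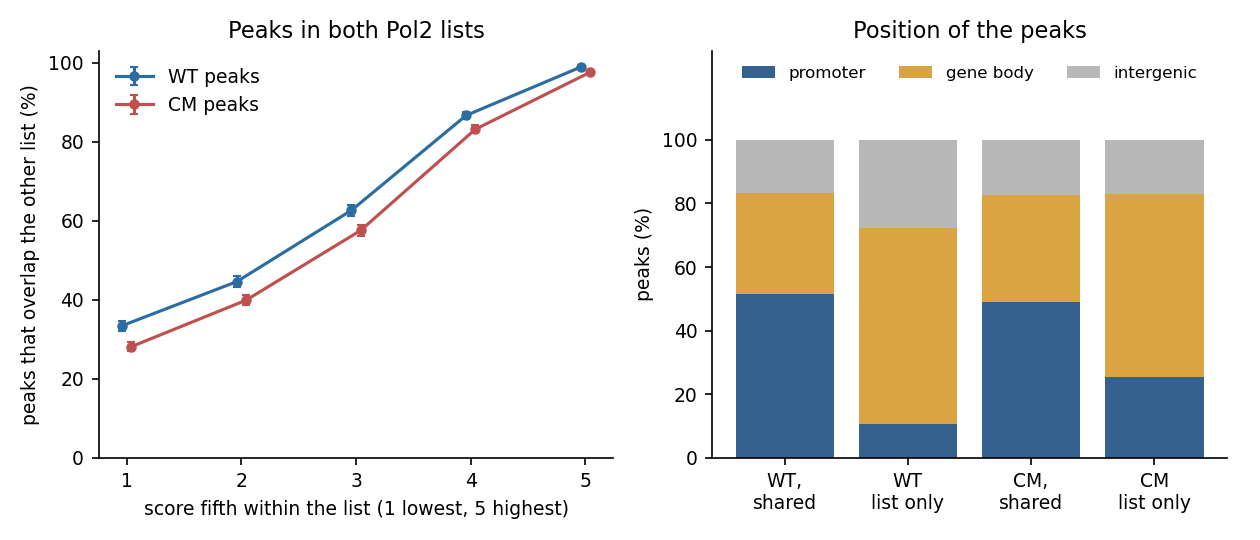
Left, percent of WT (blue) and CM (red) Pol2 peaks that overlap a peak of the other list, by score in 5 bins of equal size within the list, with 95% Wilson intervals. The share climbed from 33.4% and 28.1% in the lowest bin to 98.9% and 97.6% in the highest. Right, percent of shared peaks and of peaks found in 1 list at promoters (dark blue), in gene bodies (yellow) and between genes (grey). Promoters made 10.7% of the WT list only and 25.6% of the CM list only peaks.

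H3K4me3, a histone mark of active promoters, covered most shared Pol2 peaks and few of the others. Each H3K4me3 list stands for a single library per genotype, and the lists were unequal, with 34347 peaks in WT and 20432 in CM. Presence of the mark in a single list therefore had no replicate check. In WT, 61.3% of shared peaks and 14.1% of WT list only peaks overlapped a WT H3K4me3 peak. In CM, 58.8% of shared peaks and 21.0% of CM list only peaks overlapped a CM H3K4me3 peak. Of the CM list only peaks at promoters, 1360 of 2815 lay over a WT H3K4me3 peak, although the WT Pol2 list had no peak there, and 1743 lay over a CM H3K4me3 peak. Where H3K4me3 was listed in CM only, Pol2 was more often listed in CM only as well, while genes with H3K4me3 in WT only had Pol2 about equally often in either single list. Of 1596 genes with promoter H3K4me3 in the CM list only, 353 (22.1%) had Pol2 in the CM list only and 30 (1.88%) in the WT list only, and the 167 with Pol2 in both lists had a median shift of 13.0 points. Of 546 genes with H3K4me3 in the WT list only, 30 (5.49%) had Pol2 in the WT list only and 29 (5.31%) in the CM list only, against 1.39% and 8.82% of all genes. The 36 with Pol2 in both lists had a median shift of -7.33 points, with an interval from -15.3 to 1.10 that included 0. The 7833 genes with H3K4me3 and Pol2 in all lists had a median shift of 5.28 points. Their median WT percentile was 79.4, against 54.0 for the 167 genes with the mark in the CM list only. All genes that began from percentile 50 to 75 had a median shift of 13.1 points, so the larger shift cannot be told apart from the lower start.

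At the gene level, 8429 of 21109 genes (39.9%) had a Pol2 peak at a promoter in WT and 9997 (47.4%) in CM. Both lists held a promoter peak for 8135 genes, only the WT list for 294, only the CM list for 1862, and neither for 10818. Absence from a list did not always mean absence from the gene, since 87 of the 294 WT list only genes (29.6%) had a CM peak elsewhere over the gene and 381 of the 1862 CM list only genes (20.5%) a WT peak. The genes of 1 list had peaks of middle rank, with a median percentile of 37.6 in WT and 49.1 in CM, while the median over genes of both lists was 78.7 in WT and 85.5 in CM.

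Among the 8135 genes in both lists the promoter percentile was higher in CM for most, with a median shift of 5.37 points (interquartile range 0.02 to 16.1, full range -81.0 to 97.5). The shift was above 0 in 6105 of them (75.05%) and below 0 in 2030 (24.95%). The tied score of 3100 was at percentile 99.47 in WT and 99.61 in CM. Genes at that score in both lists thus had a shift of 0.142 points without a change of score, and count as above 0. A rise of 20 points or more was found for 1595 genes (19.6%) and a fall of 20 points or more for 231 (2.84%). When the percentile was taken among genes with a promoter peak in place of among all peaks, the split was 1550 genes up and 558 down. Genes kept much of their order (Spearman's rho 0.80 across 8135 genes). At the threshold, Gsk3a was just inside with 20.002 and Syce1l just outside with 19.99 points, and for falls Efhc2 was inside with -20.07 and Ccdc54 outside with -19.97 points.

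The 10 largest rises and 10 largest falls, among genes with an RNA value and counting each pair of peaks once, included several genes whose RNA was called in CM testis. RNA levels are given as CPM (read counts scaled to a common library total) in the 3 libraries of each genotype, and the RNA test was the edgeR quasi-likelihood test with Benjamini-Hochberg adjustment over 16378 genes. A gene was called at an adjusted p below 0.05 and a fold change above 2. The calls depended on single libraries. Without WT replicate 2, edgeR called 4 genes higher and 7 lower, without WT replicate 3 it called 1 and 2, and without CM replicate 3 it called 2 and 2, against 2502 and 966 with all libraries. Unadjusted p-values below 0.05 were found for 5077, 5417 and 5598 genes without these libraries and for 6789 with all. Of the 20 called genes whose fold changes are given here, Rltpr alone kept its call in each of these 3 cases, and none of the 20 changed sign.

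Rasd1, a small G protein induced by glucocorticoids, rose from percentile 10.5 to 96.3 (score 58.98 to 1489). Its RNA was 3.90, 3.79 and 4.38 CPM in WT and 9.60, 5.23 and 11.6 CPM in CM, with all CM libraries above all WT libraries and a log2 fold change of 1.13 ± 0.35 (SE, edgeR adjusted p = 0.0425). Hk2, a hexokinase of glycolysis, rose from 0.165 to 85.8, and its RNA overlapped between genotypes (18.8 to 28.8 CPM in WT, 24.4 to 52.0 in CM, adjusted p = 0.252 by edgeR). Cyr61, a secreted matrix protein gene that responds early to growth factors, rose from 12.0 to 93.7. Nr4a3, an orphan nuclear receptor of the early response genes, rose from 0.520 to 79.2. Its WT and CM peaks both lay outside the gene, 920 and 361 bp from a start, and neither list had a peak over the gene. Its RNA moved the other way, with 3.11, 3.10 and 2.42 CPM in WT and 1.36, 1.15 and 1.36 in CM, and was called lower (log2 fold change -1.16 ± 0.31, edgeR adjusted p = 0.0298). Hspb1, a small heat shock protein, rose from 10.8 to 88.4, and Snx4, a sorting nexin, from 10.3 to 85.2. The list of the largest rises was completed by Gart, Tlcd2, Entpd4 and Mars. For Tlcd2 the WT and CM peaks both lay outside the gene, 513 and 497 bp from a start. Gart makes an enzyme of purine synthesis and shares its promoter peak with Son, a splicing factor gene. Its rise from 2.45 to 99.99 rested on 1 WT peak of 35660 bp with a score of 51.95, where CM had a peak of 10919 bp with a score of 3211. Ranked by peak width, Gart had a shift of -0.685 points. For Mars, a methionyl-tRNA synthetase, the CM value came from a peak at a start near the gene's far end (chr10:126724382-126734949) and the WT value from the upstream start (chr10:126748046-126749992), so that different peaks were compared. RNA of 9 of the 10 genes with the largest rises had a log2 fold change above 0, with 1 called higher and 1 called lower.

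Usp44, a deubiquitinase that acts in mitotic control, had the largest fall, from 90.4 to 9.40. Its RNA was 448, 583 and 498 CPM in WT and 196, 351 and 281 in CM, with no overlap between genotypes, but its log2 fold change of -0.88 ± 0.27 was below the fold limit (edgeR adjusted p = 0.0443). Prss37, a testis gene of the serine protease family, fell from 92.1 to 21.9. In WT its peak covered 6234 bp and in CM 908 bp, and the share of its gene body under Pol2 peaks was 100% in WT and 8.98% in CM. Prss37 RNA was 272, 306 and 229 CPM in WT and 100, 124 and 119 in CM (log2 fold change -1.23 ± 0.23, edgeR adjusted p = 0.0159). Prss51, which shares its peak with Prss55 and belongs to the same family, fell from 69.5 to 4.67, and its RNA from 97.8, 60.4 and 47.5 to 21.0, 27.9 and 30.9 CPM (-1.37 ± 0.31, edgeR adjusted p = 0.0201). The third gene with lower RNA was 1700020A23Rik, whose percentile fell from 89.1 to 14.7 and whose RNA fell from 92.2, 108 and 112 to 18.8, 45.3 and 49.3 CPM (-1.46 ± 0.35, edgeR adjusted p = 0.0226). In these 3 genes every CM library lay below every WT library. The other falls were 2210016F16Rik (97.5 to 17.8), 4930579C15Rik (83.1 to 12.4), Lyzl1, a lysozyme-like gene (80.6 to 14.5), 4933436I01Rik on the X chromosome (86.1 to 20.1), Mum1 (93.0 to 27.4) and 4930415F15Rik (91.5 to 26.3). For 2210016F16Rik the WT peak of 9050 bp lay outside the gene, 306 bp from the start, and the CM peak of 2037 bp lay over the start. Its RNA log2 fold change was above 0 (0.99, not called). For Mum1 the CM peak spanned 21207 bp with a score of 71.91, where the WT peak had 4206 bp and a score of 1173. Ranked by peak width, Mum1 had a shift of 12.1 and 1700020A23Rik one of 1.89 points. RNA of 9 of the 10 genes had a log2 fold change below 0, 3 were called lower, and 8 had higher RNA in RS than in SC of WT testis by the stage test given further on.

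**Figure D2:**
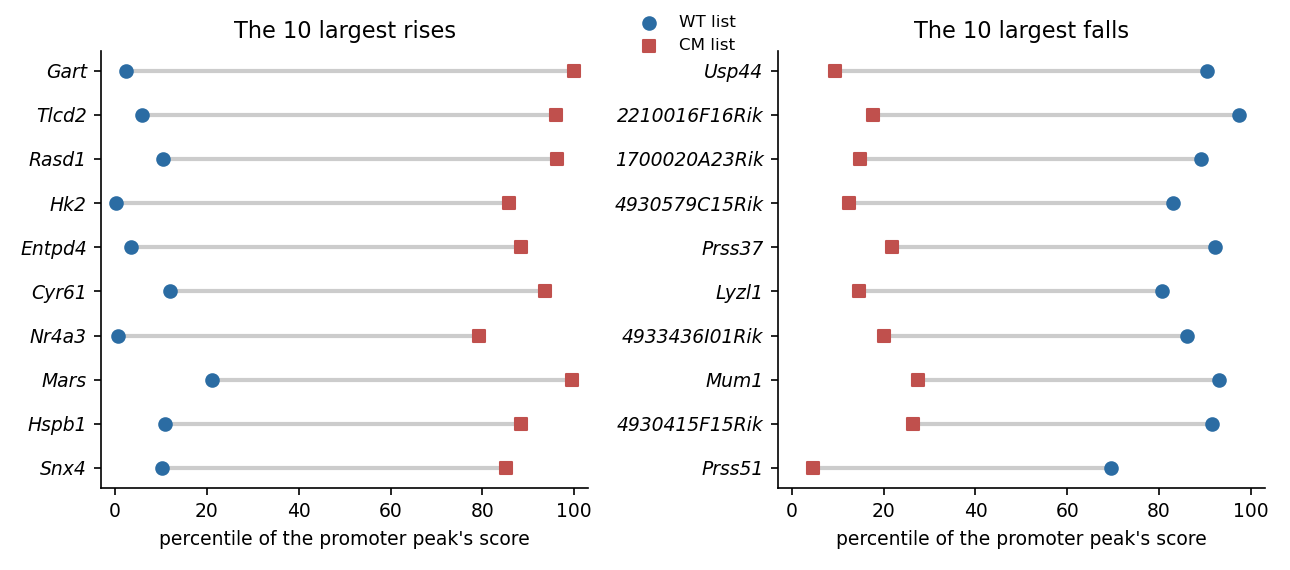
Percentile of the highest-scoring promoter peak in the WT list (blue circles) and the CM list (red squares) for the 10 genes with the largest rise (left) and the 10 with the largest fall (right). Each line joins the 2 values of a gene, which span 74.9 to 97.5 points among the rises and 64.8 to 81.0 points among the falls.

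The highest-ranked promoter peaks found in 1 list only were often not without a counterpart nearby. The highest WT list only genes described here were Cyp19a1 (aromatase, the enzyme of oestrogen synthesis), E130003G02Rik, Zfp87, 1700017N19Rik, Myo1a (an unconventional myosin), Ap3m2 (an adaptor complex subunit), 2310046O06Rik, Plekha6 and Gm1527, with percentiles from 92.2 to 98.9. In 8 of these 9 genes a CM peak lay between 1004 and 4174 bp from a start, just outside the window, and Gm1527 was the exception at 83086 bp. Of these 9, only 1700017N19Rik was called lower by RNA (135, 162 and 151 CPM in WT, 42.7, 81.2 and 68.9 in CM, -1.22 ± 0.28, edgeR adjusted p = 0.0198).

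Among the 10 highest CM list only genes, 3 had RNA called higher. Socs3, an inhibitor of cytokine signalling, had a CM peak at percentile 99.3 that spanned its whole gene body, and the nearest WT peak was 3455 bp from a start. Its RNA was 0.756, 0.483 and 0.372 CPM in WT and 4.52, 2.04 and 3.53 in CM (2.56 ± 0.45, edgeR adjusted p = 0.0154). Dbp, a transcription factor of the circadian output, had 4.92, 5.38 and 4.84 CPM in WT and 17.0, 9.57 and 18.9 in CM (1.59 ± 0.32, edgeR adjusted p = 0.0168). Nfkbia, the inhibitor that holds NF-kappa B in the cytoplasm, had 5.03, 4.34 and 5.12 CPM in WT and 12.6, 7.72 and 10.9 in CM (1.11 ± 0.29, edgeR adjusted p = 0.0281). In all 3 the CM libraries lay above the WT libraries. Pol2 was not absent from Dbp and Nfkbia in WT, since each had 1 WT peak over the gene. The nearest WT peak was 1424 and 2471 bp from a start, and 76.4% and 34.2% of the gene body lay under WT peaks, against 100% in CM. Nasp, a histone chaperone, carried a CM peak of 6073 bp at percentile 99.2 (chr4:116295454-116301526) and had no WT peak over the gene, with the nearest WT peak 22568 bp from a start. Its RNA was nevertheless abundant in both genotypes, with 1144, 941 and 837 CPM in WT and 557, 770 and 417 in CM (-0.74 ± 0.29, edgeR adjusted p = 0.0848). Dhx9, an RNA helicase, Nfkbiz, a nuclear member of the NF-kappa B inhibitor family, and Npm3, a nucleoplasmin family gene, had no WT peak within 20 kb of a start, at distances of 27584, 37213 and 35346 bp. Dhx9 nevertheless had 1 WT peak over the gene, with 14.0% of its gene body under WT peaks, while Nfkbiz and Npm3 had none over the gene. Ndufb10 (a subunit of respiratory complex I), Hspa4l (a heat shock protein of the Hsp110 family) and Csrnp1 had WT peaks 1262, 3495 and 1070 bp from a start. The highest promoter peaks of all were at Ccdc96 and Tada2b, Anapc2 and Ssna1, Tmem184c, Zfp768 and Gtsf1l in WT, and at Fbxo36 and Trip12, Gart and Son, Matr3, Bclaf1, and 9930021D14Rik and Pgp in CM. Apart from Gart, these peaks were at percentile 95.3 or above in both lists.

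A selection of 10 genes from the study's text and supplementary tables was also read, and 8 had no promoter Pol2 peak in either list, a class that held 51.2% of all genes. Ctcf, of which CM mice lack 1 copy, had a promoter peak at percentile 68.3 in WT and 83.6 in CM, while its RNA was 46.4, 42.5 and 44.0 CPM in WT and 27.0, 28.1 and 24.8 in CM (-0.74 ± 0.21, edgeR adjusted p = 0.0329, under the fold limit). Fads2, a fatty acid desaturase, had a peak in the CM list only, at percentile 56.2, with RNA of 87.1, 58.8 and 50.6 CPM in WT and 909, 206 and 276 in CM (2.82 ± 0.56, edgeR adjusted p = 0.0165). The 8 without a peak were Ctcfl, Kit, Prss50, Mfi2, Fads1, Ankrd52, Gal3st1 and Rltpr. Of these, Rltpr, which was taken from a supplementary table, and Kit, the gene of the stem cell factor receptor, had RNA log2 fold changes of 5.24 ± 0.36 and 2.86 ± 0.53 (edgeR adjusted p = 0.00225 and 0.0159). Ctcfl RNA, deleted in CM, was 0.524, 0.621 and 0.745 CPM in WT and 0.197, 0.128 and 0.160 in CM, and did not pass the filter on low counts.

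The Pol2 classes were set beside the RNA change between CM and WT testis to see whether genes with gained or lost peaks changed in RNA. Of the 16378 genes tested, 2502 (15.3%) were called higher and 966 (5.90%) lower in CM. Among 1779 tested CM list only genes, 624 (35.1%, 95% interval 32.9 to 37.3) were called higher and 24 (1.35%) lower. Among 269 tested WT list only genes, 65 (24.2%, 19.4 to 29.6) were called lower and 9 (3.35%) higher. Of the 8042 genes in both lists, 6.49% were lower and 5.72% higher. Among the 5431 genes in neither list 24.8% were higher and 5.38% lower. The median log2 fold change was 0.79 for CM list only, -0.67 for WT list only, -0.20 for both and 0.39 for neither, against 0.02 over all genes with a start. RNA without a promoter peak in either list thus also included many higher calls.

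The per-library values showed the same directions. The median CM list only gene had 8.38, 7.31 and 7.26 CPM in the WT libraries and 16.0, 11.0 and 14.3 in the CM libraries. The median WT list only gene had 27.7, 26.5 and 25.9 CPM in WT and 15.4, 20.2 and 19.2 in CM. In both classes the libraries of the genotypes did not overlap. The percentages rest on the calls that depended on single libraries. Over all 6 omissions of 1 library the median log2 fold change stayed between 0.67 and 0.98 for CM list only genes and between -0.72 and -0.49 for WT list only genes.

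**Figure D3:**
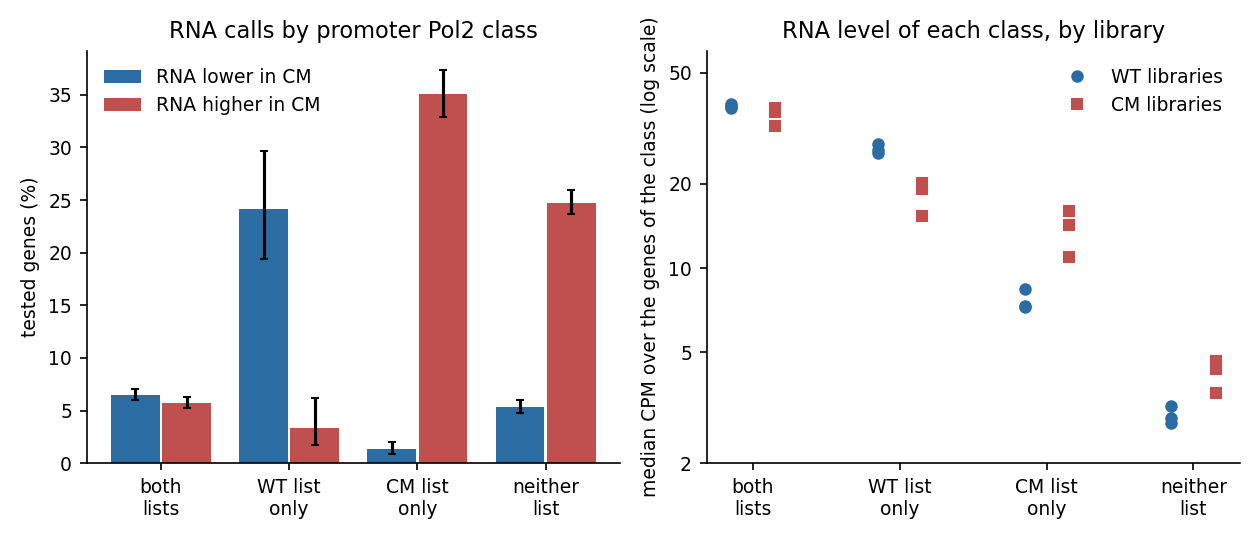
Left, percent of tested genes called lower (blue) or higher (red) in CM testis RNA by promoter Pol2 class, with 95% Wilson intervals. Right, median CPM over the tested genes of each class in each library (WT blue circles, CM red squares, log axis). CM list only genes were higher in 35.1% and WT list only genes lower in 24.2%, and in both classes the 3 WT and 3 CM libraries were apart.

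The Pol2 shift was ordered in the same way. Genes in both lists with lower RNA had a median shift of -2.53 points (522 genes, -3.39 to -1.51), genes with RNA not called 5.43 points (7060 genes) and genes with higher RNA 20.9 points (460 genes, 17.5 to 24.2). These groups began at different WT levels, with median WT percentiles of 88.4, 79.0 and 53.2, and a peak high in the WT list has little room to rise. Within ranges of the WT percentile, chosen after seeing the data, the order was the same, while genes with higher RNA lay closer to those not called than over all ranges. Below percentile 50 the median shifts of genes with lower, not called and higher RNA were 21.6, 32.4 and 42.1 points (48, 1155 and 205 genes). From 50 to 75 they were -2.03, 13.3 and 15.5 points (87, 1902 and 138 genes), and from 75 to 90 they were -4.83, 5.01 and 7.63 points (148, 2034 and 93 genes). At 90 and above they were -2.86, 0.14 and 1.12 points (239, 1969 and 24 genes). A rise of 20 points or more was seen in 50.9% of the genes with higher RNA, against 19.6% of all. Read by shift, 31.0% of the 58 tested genes that fell by more than 40 points and 2.20% of the 499 that rose by more than 40 points had lower RNA, while 1.72% and 22.6% had higher RNA. Shift and RNA fold change correlated weakly to moderately across 8042 genes (Spearman's rho 0.42), which share libraries and are not independent replicates.

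In the groups by RNA change, Pol2 in gene bodies followed the promoters, but in genes higher in RS it did not. Among genes of at least 3000 bp, the mean share of the body under a Pol2 peak, from 1000 bp past the start, was 8.65% in WT and 9.64% in CM over all 18007 genes. It was 17.8% and 14.7% for 809 genes with lower RNA and 2.03% and 4.85% for 2316 genes with higher RNA. At the start itself, 16.3% of the genes with higher RNA lay under a WT peak and 38.2% under a CM peak. Genes with lower RNA were under a peak at the start in 57.3% in WT and 53.9% in CM, and 5 kb downstream in 17.7% and 14.6%. In the 3 kb past the gene end, coverage went from 12.1% to 14.2% over all genes, from 18.6% to 17.3% with lower RNA and from 5.81% to 10.0% with higher RNA. In the 3940 genes higher in RS by the stage test given further on, promoter coverage went from 32.2% to 36.9%. Their body coverage went from 9.02% to 8.03%, and that past the gene end from 10.6% to 10.3%.

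**Figure D4:**
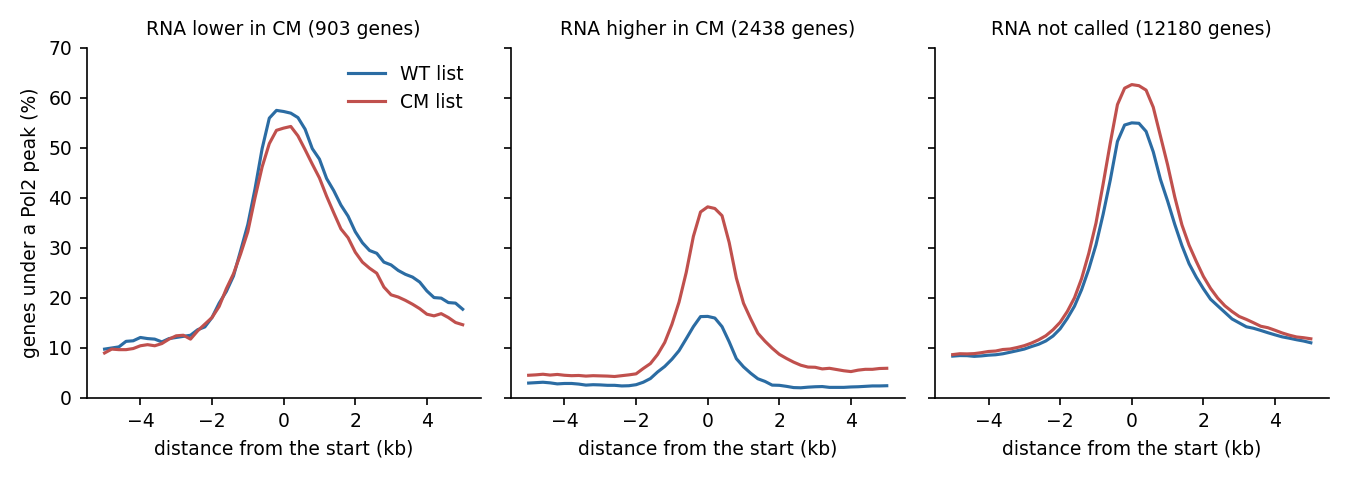
Percent of genes under a Pol2 peak of the WT list (blue) or the CM list (red) at each distance from the 5′-most start, for genes with RNA called lower, higher or not called in CM testis. At the start 57.3% of the genes with lower RNA were under a WT and 53.9% under a CM peak, and 16.3% and 38.2% of the genes with higher RNA.

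To relate Pol2 to germ cell stages without using CM samples, genes were sorted by RNA of WT RS against WT SC (3 and 2 libraries). By the edgeR test, 4700 of 16052 genes (29.3%) were higher in RS and 3690 (23.0%) higher in SC. WT list only genes were RS higher in 54.4% (147 of 270), and CM list only genes in 23.9%, against 28.4% of all genes with a start. In WT the median WT list only gene had 6.60, 8.52 and 7.83 CPM in RS and 1.36 and 1.37 in SC. Genes higher in RS had a median Pol2 shift of -0.17 points (1738 genes), which was 0.142 with DESeq2 or its size factors, genes higher in SC 8.90 points (2195 genes) and genes not called 5.92 points (4108 genes). RS-higher genes thus lay below the other groups, and their direction was not resolved. The median WT percentiles of the RS-higher, SC-higher and not called genes were 83.8, 73.7 and 79.2. In the range from 50 to 75 the shifts were 6.30, 14.1 and 13.7 points, and from 75 to 90 they were -0.78, 6.34 and 5.39 points. Below 50 they were 30.6, 34.4 and 33.3 points, and at 90 and above -2.05, 0.98 and 0.20 points. Within the RS-higher genes, the shift was -4.73 points for the 366 with lower RNA in CM testis and 26.7 points for the 112 with higher RNA. Their median WT percentiles were 89.3 and 43.5, and all genes that began below percentile 50 had a median shift of 33.4 points. The contrast thus cannot be told apart from the starting rank. None of the RS-higher genes with higher RNA had Pol2 in the WT list only and 150 had it in the CM list only.

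**Figure D5:**
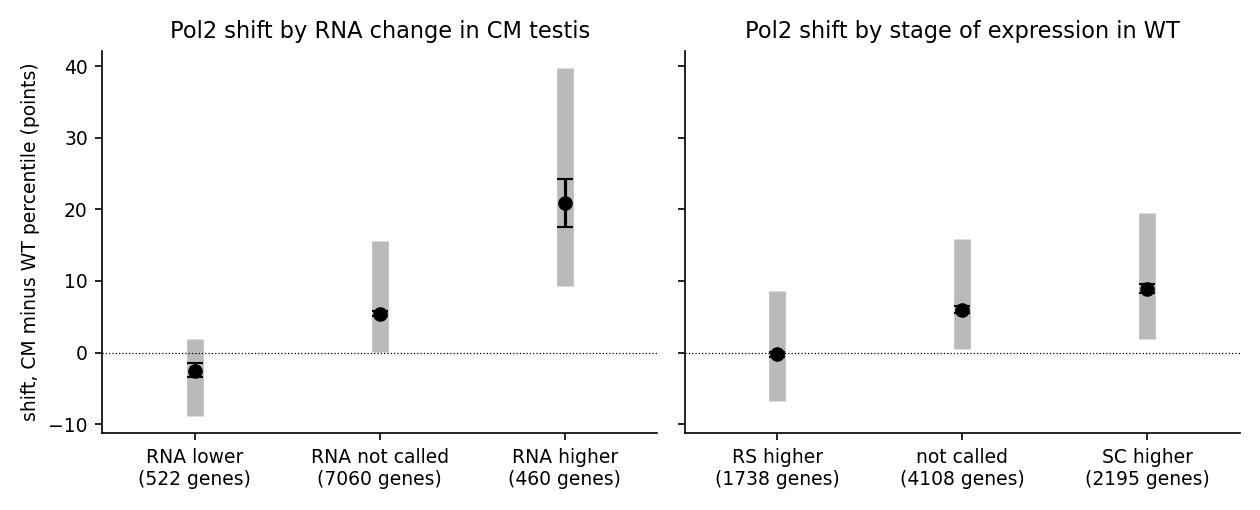
Shift of the promoter percentile (CM minus WT, in percentile points) for genes with a promoter peak in both lists, by RNA change in CM testis (left) and by WT stage of expression (right). Dots are medians with 95% order-statistic intervals and grey bars interquartile ranges. Medians ran from -2.53 to 20.9 points by RNA change and from -0.17 to 8.90 points by stage.

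In the purified cells Ctcf RNA did not follow the genotype labels. Ctcf, of which CM mice lack 1 copy, was at 169, 47.9 and 39.0 CPM in the RS libraries labelled CM and at 46.1, 30.5 and 28.7 in WT RS. In SC it was at 82.9, 32.9 and 32.2 CPM in the libraries labelled CM and at 33.5 and 31.8 in WT. Ctcfl was at 2.51, 1.82 and 1.09 CPM in RS labelled CM against 2.69, 4.99 and 3.30 in WT RS, lower but still present, and counts per gene do not show whether these reads lie in the deleted part. Rltpr, which lies downstream of Ctcf on chromosome 8, was higher in the libraries labelled CM. Its log2 fold change was 5.52 in RS and 5.14 in SC, close to the 5.24 in whole testis. With the purified libraries taken by their labels, the median log2 fold change of WT list only genes was -0.45 in RS (266 genes), between -0.57 and -0.39 without any 1 library. In SC it was 0.23 (246 genes) and 0.060 without CM SC replicate 3. For CM list only genes it was 0.46 in RS (1588 genes), but 0.18 without CM RS replicate 2, and the per-library medians of log2(CPM + 1) differences from WT were 0.213, 0.782 and 0.137, so that the size rested on that library. In SC it was 0.04 (1580 genes), and over all genes it was 0.02 in RS and 0.01 in SC. Across genes in both lists, the Pol2 shift had a Spearman's rho of 0.41 with the RNA fold change in RS (7993 genes, 0.35 without CM RS replicate 2) and of -0.11 in SC (7928 genes).

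The lists of genes with known roles were read against the shares over all genes, which were 19.6% rises and 2.84% falls of 20 points or more, 75.05% of shifts above 0, and RNA called higher in 15.3% and lower in 5.90% of tested genes. Of 40 genes for spermatid and sperm structure, 38 had promoter Pol2 in both lists, with a median percentile of 97.0 in WT and 94.6 in CM. Their median shift was -2.41 points against 5.37 over all genes, 30 of 38 (78.9%) were below 0, none rose and 1 (2.63%) fell by 20 points or more, the last near the share of all genes. Genes this high could hardly rise, and of the 30 that began at percentile 90 or above 76.7% were below 0, against 46.5% of all 2252 such genes. RNA was lower in 18 of the 40 (45.0%) and higher in none. Akap3, an anchoring protein of the sperm fibrous sheath, went from percentile 83.3 to 59.0. Its RNA was 2490, 2320 and 1677 CPM in WT and 763, 1003 and 827 in CM (-1.32 ± 0.26, edgeR adjusted p = 0.0165). Catsper3, a subunit of the sperm calcium channel, went from 95.04 to 76.9, and Acrv1, an acrosomal protein, from 98.4 to 83.7. Lelp1 went from 79.5 to 64.0 with lower RNA (-1.36 ± 0.31, edgeR adjusted p = 0.0198). Spem1, a protein of late spermatids, was the only WT list only member. For Prm1 and Tnp1, which package sperm chromatin, the peak was at the shared score of 3100 in both genotypes and could not show a shift.

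Of 19 spermatid transcription regulators, 18 had Pol2 in both lists with a median shift of 0.77 points, and 4 had lower RNA. Sox5, a transcription factor with a short testis isoform, went from 84.0 to 43.9, and its RNA from 138, 155 and 146 to 65.4, 75.5 and 65.4 CPM (-1.09 ± 0.21, edgeR adjusted p = 0.0161). Fhl5 (ACT), a coactivator of CREM, went from 95.8 to 82.3 with RNA lower by -1.24 ± 0.29 (edgeR adjusted p = 0.0209). Kdm3a, a histone demethylase needed for protamine gene expression, went the other way, from 83.7 to 99.6.

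Of 29 meiotic prophase genes, 27 had Pol2 in both lists, with a median shift of 0.81 points, and 1 had lower RNA and none higher. Dmc1, the meiotic recombinase, went from percentile 2.97 to 77.6, with RNA of 3.29, 4.96 and 3.72 CPM in WT and 5.41, 5.49 and 4.65 in CM, groups that overlapped (edgeR adjusted p = 0.343). Rec8, a meiotic cohesin subunit, went from 46.7 to 69.9 (but -19.9 points by peak width), and Tex15, a gene of meiotic repair, from 91.3 to 77.4. Of 20 spermatogonial and early meiotic genes, 4 had Pol2 in both lists, 4 in the CM list only and 12 in neither, and 5 had higher RNA. The CM list only members were Ccnd2 (cyclin D2), Etv5, Foxo1 and Sohlh2, at percentiles 14.1, 45.0, 38.2 and 16.6. Ccnd2 RNA was 2.21, 2.41 and 2.14 CPM in WT and 26.2, 8.61 and 18.9 in CM (2.99 ± 0.43, edgeR adjusted p = 0.0151).

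Markers of the somatic cells of the testis had few Pol2 peaks in WT. Of 15 Sertoli cell markers none had a promoter peak in WT and 6 had one in CM, among them Clu at percentile 76.1, Wt1 at 43.4, Kitl at 32.7 and Sox9 at 18.2. Their summed RNA ran from 284 to 448 CPM in WT and from 709 to 1478 in CM, and 7 of 15 (46.7%, against 15.3% of all tested genes) were called higher. Of 10 Leydig cell markers 2 had Pol2 in both lists and 8 in neither, including Cyp11a1, Cyp17a1 and Hsd3b1 of steroid synthesis, while their summed RNA ran from 444 to 715 CPM in WT and from 2115 to 4188 in CM, with 7 called higher. Star, which carries cholesterol into mitochondria, went from percentile 21.3 to 91.6. Of 12 macrophage markers 1 had Pol2 in both lists and 1 in the CM list only, Cd68 at 82.0, while 10 were called higher by RNA. Their summed RNA, led by Aif1, overlapped between WT (549 to 748 CPM) and CM (630 to 938 CPM). Of 13 myoid, stromal and endothelial markers 2 had Pol2 in the CM list only and 11 in neither, and 7 were called higher and 1 lower. Their sum ran from 146 to 247 CPM in WT and from 407 to 745 in CM. The part of these cells in the Pol2 gains and the higher RNA calls was not tested. When the RNA comparison was restricted to genes with at least 1 CPM in WT RS or SC, 264 of 1214 CM list only genes (21.7%) were called higher against 7.62% of all 11668 such genes, and 59 of 228 WT list only genes (25.9%) lower against 6.70%.

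Genes that most cells use mostly had Pol2 in both lists, with small shifts that were mostly above 0, as were 75.05% of shifts over all genes. All 31 proteasome genes in both lists had a shift above 0, with a median of 8.04 points, and 4 more were in the CM list only. A rise of 20 points or more was found for 5 of the 31 (16.1%), no more than the 19.6% of all genes. Psmd3, of the regulatory particle, went from 37.5 to 79.3. RNA was higher in 2 of 37 tested proteasome genes (5.41%), below the 15.3% of all tested genes. Of the 83 cytosolic ribosomal protein genes 80 were in both lists, with a median shift of 6.44 points, and 73 (91.2%) were above 0, while 11 (13.8%) rose by 20 points or more. The largest of these shifts included Rpl22 (2.16 to 53.2, but -2.33 points by peak width) and the X-linked genes Rpl10 (43.2 to 86.7) and Rpl36a (28.9 to 64.4). RNA of Rpl10 was 8.70, 7.17 and 4.66 CPM in WT and 29.0, 16.8 and 39.5 in CM (2.04 ± 0.38, edgeR adjusted p = 0.0159). Of 65 genes for Pol2 and its initiation and elongation factors, 60 were in both lists with a median shift of 4.80 points, close to the 5.37 of all genes, 6 (10.0%) rose by 20 points or more, and 4 of 65 (6.15%) had higher RNA. Polr2i, a Pol2 subunit, went from 39.0 to 79.8 and Ccnh, of the kinase of TFIIH, from 18.4 to 58.9. Taf1, the X-linked scaffold of TFIID, went from 42.1 to 75.1 with RNA of 6.17, 5.93 and 5.68 CPM in WT and 19.6, 13.7 and 19.2 in CM (1.56 ± 0.27, edgeR adjusted p = 0.0154). Mnat1, another part of that kinase, was in the WT list only. Of 15 genes for CTCF, BORIS and cohesin, 13 were in both lists with a median shift of 10.0 points, led by Pds5a (16.5 to 76.1), which regulates cohesin release, and Stag2 (57.1 to 83.2).

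The replication-dependent histone genes, which sit in clusters and share peaks, were in both lists for 33 of 66, in the CM list only for 17 and in the WT list only for none. Their median shift was 9.80 points, and 15 of 40 with a test (37.5%) had higher RNA. Hist1h4d went from 10.1 to 83.1, with RNA of 1.08, 1.45 and 1.86 CPM in WT and 4.62, 6.70 and 14.8 in CM (2.59 ± 0.49, edgeR adjusted p = 0.0161). Hist1h2bk and Hist1h2ah share 1 peak pair (1.52 to 69.3), as do Hist1h2ac and Hist1h2bc (29.0 to 89.9). Near-identical copies in this family make the assignment of RNA reads to single genes uncertain.

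Pol2 was also compared at CTCF and BORIS peaks, since both proteins are reduced or absent in CM. Of 34625 WT CTCF peaks, 15198 had no overlapping CM CTCF peak (lost) and 19427 had one (kept). Lost CTCF peaks lay under a Pol2 peak in 16.5% in WT and 20.8% in CM, and kept CTCF peaks in 7.15% and 8.98%. At promoters, 43.6% of 4654 lost peaks were under WT Pol2 and 54.1% under CM Pol2, against 31.2% and 40.2% of 2338 kept peaks. Promoters that lost CTCF thus held more listed Pol2 peaks in CM than in WT, as did promoters that kept it. By gene, the median shift was 6.30 points with a lost CTCF peak at the promoter (2101 genes), 7.67 with a kept one (668 genes) and 4.79 with none (5203 genes). Genes with a WT BORIS peak had a median shift of 6.40 points (1789 genes) and genes without one 5.11 (6346 genes). WT list only Pol2 peaks overlapped WT CTCF in 3.01% and BORIS in 0.605%, CM list only peaks in 9.79% and 3.77%, and WT shared peaks in 19.6% and 10.6%. The median shifts by CTCF or BORIS thus lay closer together than those of genes with lower, not called and higher RNA. These differences were not tested.

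On the X chromosome Pol2 peaks were few in both genotypes and more numerous in CM. It held 242 WT peaks (0.961%, 0.847 to 1.09) and 307 CM peaks (1.08%, 0.967 to 1.21), intervals that overlapped, and of the 11009 CM list only peaks 117 were on X against 52 of the 8758 WT list only peaks. Of 903 X-linked genes 174 had promoter Pol2 in both lists, 69 in the CM list only, 14 in the WT list only and 646 in neither. The median shift was 11.8 points on X (9.44 to 15.2) and 5.23 points on autosomes (4.88 to 5.54, 7957 genes), and 32.8% and 19.3% of the genes rose by 20 points or more. The X-linked genes began lower, with a median WT percentile of 70.2 against 79.0 on autosomes. All genes that began from percentile 50 to 75 had a median shift of 13.1 points, but RS-higher genes in that range had 6.30 points. The 170 RS-higher X-linked genes, not limited to that range, had 11.6 points (9.32 to 14.9) and a median WT percentile of 70.6. Whether a shift was particular to X beyond stage and starting rank was not tested. RNA of X-linked genes was called higher in 32.6% of 605 tested and lower in 3.97%, against 15.01% and 5.90% of 14907 autosomal genes. Of the 174 X-linked genes with Pol2 in both lists, 170 were RS higher in WT. On the Y chromosome there were 4 WT and 6 CM peaks.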

How the data were processed

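Peaks of Pol2, H3K4me3, CTCF and BORIS and RNA-seq counts were used as deposited, and no reads were realigned. Per the study's methods, ChIP-seq reads were aligned to mm9 with Bowtie2 and peaks called with MACS or MACS2, with a fixed extension size for Pol2 and H3K4me3 and PeakSplitter for sub-peaks. The authors deposited a score for each Pol2 and H3K4me3 peak, whose definition and depth are not given in the sources used here, and a height signal for each CTCF and BORIS peak. For RNA the deposited values are whole-number counts of reads, not normalized, under 23284 gene symbols, of which 25 in whole testis read as dates. The tool behind them and its use of strand are not given in the sources used here.

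Peaks shared at least 1 bp to count as overlapping. Percentiles were mid-ranks within a list. Starts, gene bodies and promoter sequence came from the mm9 genome with GENCODE annotation, in which 21109 genes of the count table had a start. RNA was tested with edgeR 4.0.16 (R 4.3.3) after TMM scaling, quasi-likelihood, Benjamini-Hochberg adjustment, and a filter at a minimum count of 10 in enough libraries and a total of 15. Totals ran from 10437683 to 42055813 counts per whole testis library. DESeq2 1.42.0 was an alternative. Where labels do not state separate animals for every library, p-values measure the spread between these preparations. On simulated data 83% of 200 genes changed by a log2 fold of 2 were found among 16378 in the testis comparison, and 79% among 16052 in the stage comparison. There were 15 false calls beside 166 true ones in the former and 13 beside 158 in the latter. The simulated counts held no library effects other than library size.

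Same-numbered WT and CM testis libraries deviated together (correlations of deviations 0.564, 0.175 and 0.280), so a replicate block was run. For WT RS and SC the correlations were -0.118 and -0.0688. Named genes were a selection of those in the study's text and tables, the 10 largest rises and falls of the percentile, the 10 highest promoter peaks of each single list (all with an RNA value), the 5 highest of each list, and 2 to 4 members of each gene list. Of the highest WT list only peaks, 1 gene is not reported here. The members and gene lists were chosen with earlier results of these data known. Alternatives covered the overlap rule, promoter window, score threshold, rank measure, RNA scaling, filter, fit and left-out libraries.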

Additional observations from a re-analysis of the deposited data

Results flagged for a closer look

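The RNA difference between CM and WT of the genes with promoter Pol2 in the WT list only had opposite signs in the 2 purified cell types. Over 202 genes, the median log2(CPM + 1) difference from the WT mean was -0.155, -0.387 and -0.408 in the 3 round spermatid libraries labelled CM. Over the same number of genes it was 0.0819, 0.181 and 0.266 in the 3 spermatocyte libraries so labelled. The difference between the means of the cell types was -0.493. Every round spermatid library was below 0 and every spermatocyte library above 0. These CPM had no TMM scaling, so 0 is not an exact baseline. Genes with promoter Pol2 in both lists were at 0.126, 0.185 and 0.00357 in round spermatids and 0.0824, 0.0201 and 0.0303 in spermatocytes. In spermatocyte replicate 1 the WT list only genes thus did not differ from them. The difference between the cell types was not tested, nor was whether each of the 202 genes was expressed in both. The median WT list only gene had 1.36 and 1.37 CPM in WT spermatocytes, against 6.60, 8.52 and 7.83 in WT round spermatids (270 genes). The spermatocyte levels of this class were thus low. The round spermatid libraries carrying the CM label had 169, 47.9 and 39.0 CPM of Ctcf, of which the mutant lacks 1 copy, against 46.1, 30.5 and 28.7 in WT. Rltpr, by contrast, had a log2 fold change of 5.52 in round spermatids and 5.14 in spermatocytes, close to the 5.24 in CM whole testis.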

How the results depend on the processing

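The peak comparisons moved with the overlap rule. Shared peaks were 62.0% of WT and 58.1% of CM when the overlap had to cover 50% of the shorter peak, 74.5% and 69.5% in the upper 50% of scores, 62.8% and 65.7% with equal numbers of peaks, where the order of the lists turned, and 71.0% and 66.6% within 1 kb. Promoter peaks were 35.5% of WT and 37.5% of CM within 500 bp of a start and 45.0% and 49.2% within 3 kb, and 8.73% and 22.4%, or 19.6% and 37.6%, of the peaks in 1 list. With the 50% overlap, WT H3K4me3 covered 12.2% of WT list only and 15.03% of CM list only peaks, and CM H3K4me3 8.77% and 19.4%. Lost CTCF peaks were then under WT Pol2 in 15.6% and CM Pol2 in 19.7%, and kept ones in 6.46% and 8.12%. Within 1 kb these were 20.1%, 25.3%, 9.74% and 12.3%. In the upper 50% of scores 1.42% of CM peaks were on X. The median shift was 4.52 points by width, 6.23 among genes (558 falls) and 3.89 with equal numbers. By width the shifts of Gart (-0.69), 1700020A23Rik (1.89), Mum1 (12.1), Rec8 (-19.9) and Rpl22 (-2.33) reversed.

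Alternatives chosen after seeing the data took the highest peak anywhere over the gene. The median shift was then 4.06, with 435 falls and 507 WT list only genes, of which 16.9% had lower RNA (median log2 fold change -0.42). The shift was 15.1 with higher RNA, -1.20 for RS-higher and 7.54 for SC-higher genes. Restricted to genes at 1 CPM in WT germ cells, also chosen after seeing the data, 899 genes were higher, with 21.7% of CM list only genes and a median of 0.44. With RNA of purified round spermatids the medians were 0.46 and -0.45, and with purified spermatocytes 0.035 for CM list only and 0.23, reversed, for WT list only genes. Without 1 library each they were 0.18 to 0.58 and -0.57 to -0.39 in round spermatids and, with a change of sign for CM list only genes, -0.023 to 0.040 and 0.060 to 0.25 in spermatocytes.

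At an edgeR adjusted p below 0.001, 0 genes were called higher and 0 lower, hence 0% of either class, though 6789 had an unadjusted p below 0.05, and DESeq2 called 2749 higher and 1288 lower at the usual limits. DESeq2 gave 38.3% of CM list only genes higher and 30.1% of WT list only genes lower, and 40.6% were higher with all 4 genotypes in one fit. The RS-higher shift reversed to 0.142 with DESeq2 and with its size factors. Without the fold limit the shift of genes with lower RNA was -0.70. With the replicate block, edgeR called 3002 genes higher and 1418 lower, 40.1% of CM list only genes higher and 31.6% of WT list only genes lower, and changed no call of a gene whose fold change is given.

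Leaving out 1 library gave 1 to 3303 genes higher and 2 to 1080 lower, 0 to 43.4% of CM list only genes higher, 0 to 23.5% of WT list only genes lower, median fold changes of 0.67 to 0.98 and -0.72 to -0.49, and shifts of 18.6 to 23.2 with higher and -2.99 to -1.002 with lower RNA. The shifts by stage stayed from -0.39 to -0.08 (RS) and from 8.76 to 9.15 (SC), with 3914 to 4869 genes RS higher and 3234 to 4077 SC higher. The cause of these changes was not tested.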
